A study of Mus musculus with 45 samples.

Results

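The change in gene expression at embryonic stage E15.5 relative to E13.5 was measured in intestinal epithelial cells of the mouse embryo that lacked both Lgr5 and the lineage label of the Axin2 line, by polyA RNA sequencing of sorted cells. The members are the 9 libraries, of 45 in the series, whose titles give the sort as EpCAM+Lgr5-Axin2:tdTomato-. They comprise 6 E15.5 libraries, 3 from the anterior and 3 from the posterior part of the small intestine, and 3 E13.5 libraries with no gut part named. EpCAM is a surface adhesion protein of epithelia, Lgr5 a receptor that marks intestinal stem cells, and Axin2 a target gene of Wnt signalling. All 9 libraries carried the same tdTomato label design, started at E9.5 in cells expressing Axin2, were titled wt, came from a mixed C57BL/6 CD1 background and held 500 sorted cells each. An E15.5 replicate was 1 embryo and an E13.5 replicate was a pool of 3 embryos, so the spread between libraries is that of single embryos at the later stage and of pools at the earlier one. A cell without tdTomato either did not express Axin2 at labelling or escaped recombination, and the sort does not tell these apart. Alleles behind the Lgr5 gate and the recombinase are not named in the sources used.

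Between these stages the fetal gut tube is remodelled from a thick, proliferating epithelium into one with villi. The first secretory cells appear at that time: goblet cells, which make mucus and trefoil peptides, and enteroendocrine cells, which make hormones. Absorptive cells begin to assemble a brush border of microvilli and the enzymes and carriers that later take up nutrients. Cells with Lgr5 become restricted to the regions between villi, so Lgr5-negative cells of the later stage include those of the villi.

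The 9 libraries held 16521311 to 19443224 reads in genes and 14685 to 15449 genes with at least 1 read. Levels are given as CPM, the read count of a gene scaled to the TMM-adjusted library total, which compare a gene between libraries but not genes of unequal length. Epcam stood at 2871 to 3426 CPM (median 2995) in the 6 E15.5 libraries, against 3084, 1952 and 2501 CPM in the E13.5 libraries. Lgr5 stood at 4.41 to 16.9 CPM (median 8.46) at E15.5, against 5.75, 0.819 and 7.03 CPM at E13.5, and Axin2 at 1.49 to 3.98 CPM at E15.5, against 3.16, 2.46 and 0.813 CPM at E13.5. None of these 3 genes was called for stage. Some libraries stood apart. Summed over 14 pancreas markers, anterior libraries 1 and 2 had 1361 and 2490 CPM and anterior library 3 had 174 CPM, the posterior libraries had 24.7 to 66.3 CPM, and the E13.5 libraries had 28.9, 21.7 and 137 CPM. Of the 14 markers, 11 had reads in each of anterior libraries 1 and 2, and Clps was called higher for stage. Only the endocrine gene Ins2 and the acinar gene Amy2a5 were at 0 in all 9 libraries. Y-linked reads were present, with Xist below 1 CPM, in anterior library 3 and posterior libraries 2 and 3. The other 6 libraries had Y-linked genes near 0 and Xist at 34.8 to 39.5 CPM at E15.5 and 45.5 to 87.5 CPM at E13.5. The same 3 E15.5 libraries had the highest summed level of 15 immediate early and stress genes, 7039 to 8720 CPM, compared with 3323 to 5573 CPM in the other 6. Anterior and posterior libraries numbered 2 differ in Y-linked reads and by these reads did not come from 1 embryo. Those numbered 1 were alike in these reads, as were those numbered 3, and whether either pair shared an embryo was not tested. Results were recomputed without each library, without anterior libraries 1 and 2 together, and without the 3 libraries with Y-linked reads together.

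**Figure D1:**
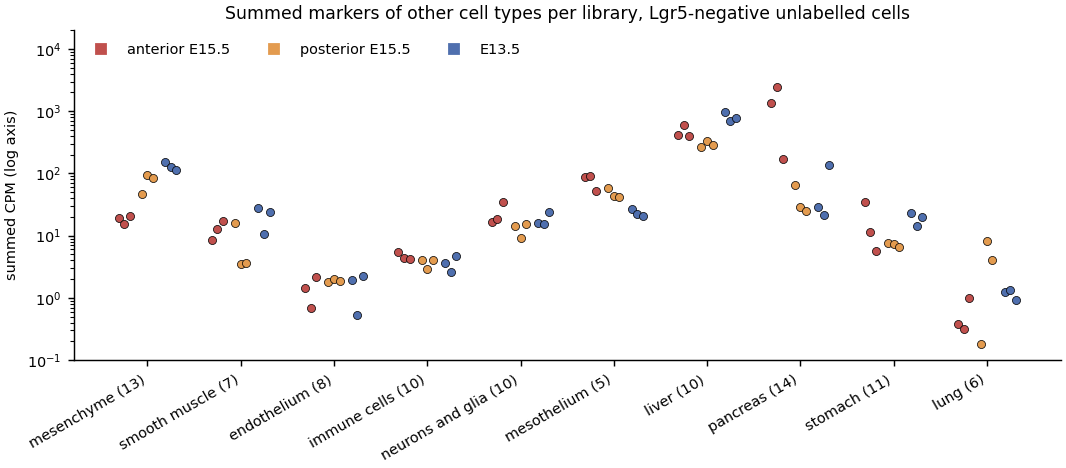
Summed CPM (log axis) of marker genes of other cell types in each of the 9 libraries, with anterior E15.5, posterior E15.5 and E13.5 libraries side by side. Pancreas markers reach 1361 and 2490 CPM in anterior libraries 1 and 2, and endothelial and immune markers stay below 6 CPM in all 9. The mesenchyme sum and the liver sum, which includes Ambp, are higher in the E13.5 libraries.

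By edgeR's quasi-likelihood test, stages were compared over all 15513 genes that passed a filter on low counts, with the mean of the anterior and posterior log2 changes as the stage change. Called genes have a Benjamini-Hochberg adjusted p below 0.05. At E15.5, 886 genes (5.71% of those tested) were higher and 1177 (7.59%) were lower than at E13.5, 2063 (13.3%) in either direction, and the median log2 change over all genes was -0.075. Without E13.5 replicate 2 the counts were 497 higher and 766 lower, and without E13.5 replicate 3 they were 500 and 814. They were 515 and 571 without anterior libraries 1 and 2, and 595 and 640 without the 3 libraries with Y-linked reads. By level alone, 1764 genes (11.4%) lay higher in every E15.5 library than in every E13.5 library and 1930 (12.4%) lay lower. Sorted populations are mixtures, so in all results fewer cells of a type and less RNA per cell cannot be told apart. The lists of genes below are described by how many tested members were called in each direction, to be read against these 2 percentages. A member that passed the filter through the groups where it was high had to differ, so the counts describe the lists and test nothing about them.

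**Figure D2:**
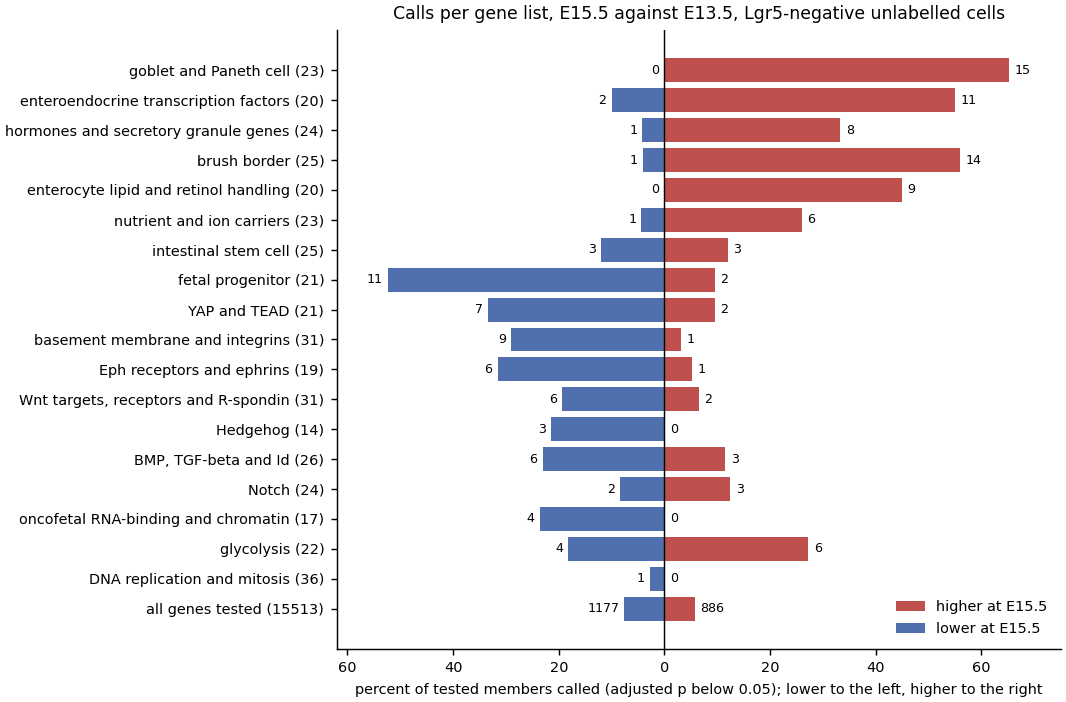
Percent of the tested members of 18 gene lists, and of all genes tested, called lower (left, blue) or higher (right, red) at E15.5 than at E13.5 in Lgr5-negative unlabelled cells, with counts beside the bars. Goblet, enteroendocrine and brush border lists extend to the right, with 15 of 23, 11 of 20 and 14 of 25 members higher, and the fetal progenitor list extends to the left, with 11 of 21 lower.

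Genes of goblet and Paneth cells were the list with the highest share of members called. Of 25 listed genes 23 were tested, 15 rose, none fell and the median log2 change was 4.77. Tff3, the trefoil peptide that goblet cells secrete with mucin, had 138 to 409 CPM (median 222) at E15.5, against 12.5, 5.44 and 8.88 CPM at E13.5. Guca2a, guanylin, a peptide ligand of guanylate cyclase C, had 35.3 to 224 CPM (median 75.1) at E15.5, against 0.984, 0.337 and 0.232 CPM at E13.5. Clca3, a secreted goblet cell protein, had 26.2 to 287 CPM (median 123) at E15.5, against 0.725, 0.241 and 0.174 CPM at E13.5. All 6 E15.5 libraries were above all 3 E13.5 libraries for each of these genes. Their log2 changes by edgeR's quasi-likelihood test were 4.77 ± 0.72 (SE, adjusted p = 1.25e-05) for Tff3, 7.58 ± 1.11 (8.12e-06) for Guca2a and 8.53 ± 1.29 (1.4e-05) for Clca3. Ern2, the stress sensor of mucus-secreting cells, had 5.11 to 30.3 CPM at E15.5, against 0, 0.193 and 0 CPM at E13.5, a log2 change of 7.70 ± 1.21. Atoh1, the transcription factor that commits cells to the secretory fate, had 10.1 to 42 CPM (median 29) at E15.5, against 0.466, 0 and 0.406 CPM at E13.5, and rose by 6.45 ± 1.47 (adjusted p = 0.00209). Muc2, the secreted mucin, had few reads at E13.5 and stood 226-fold higher by its summed counts (95% exact counting interval 62.5 to 1873). Of the transcription factors, Gfi1 rose at least 88.2-fold over the floor of 3 counts in the E13.5 group, whose libraries were all at 0. Spdef, which acts downstream of Atoh1, was not called: it had 15.2 to 50.4 CPM at E15.5, against 7.35, 9.53 and 8.48 CPM at E13.5 (log2 change 1.74 ± 0.89, adjusted p = 0.216), and it too did not overlap. Of the 10 genes with the largest called rises, Hepacam2, an immunoglobulin-family membrane protein, had 55 to 154 CPM at E15.5, against 1.45, 0.0963 and 0.174 CPM at E13.5.

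All 20 listed transcription factors of the enteroendocrine lineage were tested, 11 rose, 2 fell, and the median log2 change was 5.30, or 5.10 with genes at 0 in a group set at their bound. Neurog3, the factor that starts the endocrine programme, had 14.8 to 133 CPM (median 42) at E15.5, against 0.518, 0.0481 and 0.987 CPM at E13.5 (log2 change 6.53 ± 1.54, adjusted p = 0.00312 by edgeR's quasi-likelihood test). Insm1, a zinc finger repressor that acts with it, had 3.76 to 42.5 CPM and was at 0 in all 3 E13.5 libraries, a rise of at least 299-fold. St18, a zinc finger gene of the Myt1 family, had 2.62 to 18.9 CPM at E15.5, against 0 in all E13.5 libraries, at least 190-fold. Fev, the serotonergic ETS factor of enterochromaffin cells, had 1.8 to 34.9 CPM at E15.5, against 0, 0.0963 and 0 CPM at E13.5, a ratio of 433 (95% exact counting interval 120 to 3578). Neurod1, which follows Neurog3, had a ratio of 652 (223 to 3165). The range among E15.5 libraries was wide, but no E15.5 library overlapped E13.5 for these genes. The factors that fell were Foxa1 and Sox4, both also made outside endocrine cells. Foxa1 had 84.3 to 150 CPM (median 109) at E15.5, against 242, 451 and 353 CPM at E13.5, and its log2 change was -1.67 ± 0.22. Sox4 had 21.4 to 67.3 CPM at E15.5, against 30.8, 134 and 74.8 CPM at E13.5, so its groups overlapped. The count of 2 factors lower was 1 without E13.5 replicate 2 or 3, anterior library 1 or 2, both of these, or posterior library 1 or 2.

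Hormone and secretory granule genes rose less broadly. Of 25 listed genes 24 were tested, 8 rose, 1 fell and the median log2 change was 3.23. Sct, secretin, had 96.3 to 278 CPM (median 178) at E15.5, against 12.5, 8.67 and 9.99 CPM at E13.5, and rose by 4.05 ± 0.55 (adjusted p = 1.48e-06, edgeR's quasi-likelihood test). Scgn, secretagogin, a calcium sensor of endocrine cells, had 11.5 to 64.2 CPM (median 17.4) at E15.5, against 0.104, 0.0481 and 0.0581 CPM at E13.5. Chgb, the granule protein chromogranin B, had 60.9 to 230 CPM (median 128) at E15.5, against 0.673, 0.289 and 0.581 CPM at E13.5, a log2 change of 7.90 ± 1.5. All 6 E15.5 libraries exceeded the E13.5 libraries for these 3 genes. Ghrl, ghrelin, had 100.2, 32.1 and 73.5 CPM in the anterior E15.5 libraries and 13.3, 0.0622 and 0.123 CPM in the posterior ones, against 0.104, 0.241 and 0.174 CPM at E13.5, so 2 posterior libraries stayed at the E13.5 level. Cpe, the carboxypeptidase that trims prohormones, went the other way, with 17.2 to 62.4 CPM (median 28.4) at E15.5, against 113, 96.3 and 122 CPM at E13.5, and fell by 1.87 ± 0.37 on the log2 scale. The goblet, endocrine factor and hormone counts of genes that rose stayed at 15 to 16, 8 to 11 and 6 to 8 with each library left out. Without anterior libraries 1 and 2, which carry the pancreas marker reads, they were 15, 11 and 6. Some endocrine genes are shared with pancreatic islets, and the part of those reads in the endocrine values of these libraries was not tested beyond that.

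**Figure D3:**
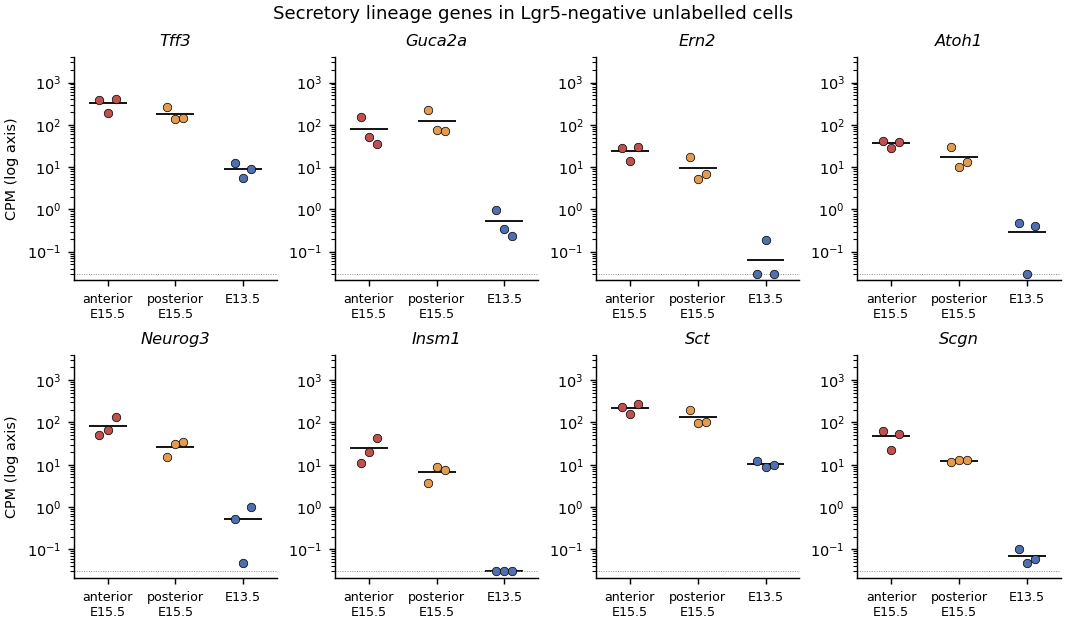
CPM (log axis) of 8 secretory genes in each anterior E15.5, posterior E15.5 and E13.5 library, with bars at the group means and values at 0 or below the floor on the dotted line. For Tff3 the E15.5 libraries lie between 138 and 409 CPM against 5.44 to 12.5 CPM at E13.5, and Insm1 is at 0 in the E13.5 libraries.

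The absorptive lists had smaller median changes than the secretory lists. The list of enterocyte lipid and retinol handling had 20 of 21 genes tested, 9 higher, none lower and a median log2 change of 1.803. Mttp, the transfer protein that loads lipid onto apolipoprotein B, had 224 to 833 CPM (median 479) at E15.5, against 43.1, 64.7 and 40.5 CPM at E13.5, and rose by 3.16 ± 0.37 (adjusted p = 1.08e-07, edgeR's quasi-likelihood test). Mogat2, which re-forms diacylglycerol in enterocytes, had 148 to 246 CPM (median 180) at E15.5, against 50.9, 49.6 and 46.9 CPM at E13.5, and Dgat1, which makes triacylglycerol from it, had 76.4 to 146 CPM at E15.5, against 47.8, 38.5 and 40.1 CPM at E13.5. None of these 3 overlapped between stages. Adh1, an alcohol dehydrogenase that also oxidises retinol, was high in the anterior E15.5 libraries alone, at 143, 310.1 and 210.5 CPM, with 17.3, 19.1 and 15 CPM in the posterior ones, against 16.1, 6.26 and 6.85 CPM at E13.5. Fabp1, the liver-type fatty acid binding protein, was not called for stage (log2 change -0.43 ± 0.82, adjusted p = 0.815 by edgeR's quasi-likelihood test). It had 185, 178 and 232 CPM in the anterior and 5.7, 3.67 and 3.99 CPM in the posterior libraries, against 52.8, 38.7 and 28.7 CPM at E13.5.

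Brush border genes were measured for 25 of 26 list members, of which 14 rose and 1 fell, with a median log2 change of 1.35. Cdhr5, a protocadherin that links microvilli, had 106 to 171 CPM (median 163) at E15.5, against 43.8, 48.4 and 55.5 CPM at E13.5 (log2 change 1.57 ± 0.17, adjusted p = 2.89e-08, edgeR's quasi-likelihood test). Lgals4, a galectin of apical membrane rafts, had 158 to 208 CPM (median 185) at E15.5, against 46.7, 25.8 and 34.8 CPM at E13.5. Muc13, a membrane-bound mucin of the epithelial surface, had 374 to 606 CPM (median 543) at E15.5, against 79, 117 and 96.8 CPM at E13.5, a log2 change of 2.37 ± 0.38. The 6 E15.5 libraries lay above the E13.5 libraries for each. Vil1, which bundles actin in microvilli, had 240 to 379 CPM at E15.5, against 109, 198 and 161 CPM at E13.5. Alkaline phosphatases changed places. Alpi, the intestinal enzyme, had 42.6 to 236 CPM at E15.5, against 13.6, 7.8 and 10.6 CPM at E13.5, while Alpl, the tissue-nonspecific enzyme, had 4.62 to 11.8 CPM (median 7.56) at E15.5, against 82, 120.5 and 82 CPM at E13.5, a log2 change of -3.63 ± 0.38 (adjusted p = 8.87e-09, edgeR's quasi-likelihood test).

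Of 23 nutrient and ion carriers, all tested, 6 rose and 1 fell, with a median log2 change of 1.52. Slc5a1, the sodium glucose carrier of the apical membrane, had 125 to 176 CPM (median 147) at E15.5, against 28.9, 33.1 and 31.3 CPM at E13.5 (log2 change 2.28 ± 0.31). Slc39a4, the zinc importer, had 49.1 to 104 CPM at E15.5, against 17.1, 15.1 and 12.7 CPM at E13.5, and Slc51a, a subunit of the basolateral bile acid exporter, had 154 to 302 CPM at E15.5, against 114, 76.2 and 104 CPM at E13.5. Slc26a3, the chloride bicarbonate exchanger, had 0.491 to 19.6 CPM (median 5.47) and was at 0 in all 3 E13.5 libraries, at least 168-fold higher over the group floor of 3 counts. Groups did not overlap for these 4 carriers. The carrier that fell was Slc40a1, the iron exporter ferroportin, with 147 to 625 CPM at E15.5, against 755, 555 and 779 CPM at E13.5. Its stages overlapped, and its call was lost without the 3 libraries with Y-linked reads. With each library left out, the lipid, brush border and carrier counts of genes that rose were 6 to 9, 12 to 14 and 5 to 6.

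Promoter windows were read for the absorptive genes because the intestinal factors HNF4, HNF1 and CDX are known regulators of enterocyte genes and some of those factors changed level here. The windows are RefSeq sequence of build GRCm38.p6, 250 bases before to 50 bases after each start, and 56 of the 70 listed genes of the 3 absorptive lists matched. The letters searched on both strands were CAAAGTCCA for HNF4, GTTAAT and ATTAA with any 1 base between them for HNF1, and TTTATGG for CDX, and each window shown holds 1 match. Genes were counted if any of their windows held the letters. HNF4 letters were found for 4 of the 56 genes (7.14%), HNF1 letters for 2 (3.57%) and CDX letters for 4 (7.14%). Among 12153 tested genes with a window they were found for 73 (0.601%), 12 (0.0987%) and 262 (2.16%). Among all 27025 genes with a window they were found for 150 (0.555%), 20 (0.074%) and 867 (3.21%). Of the 21 members that rose and had a window, 2 held HNF4, 1 held HNF1 and 2 held CDX letters. Of the 35 other members with a window 2, 1 and 2 did. The matches are letters in a window and not measured binding. One window per motif is shown, for a gene that rose, 5′ to 3′ on the gene's strand, with the matched letters in capitals. They lie at chr16:33794239-33794538 (+ strand, Muc13, HNF4 letters on the opposite strand starting at -186), chr12:31437969-31438268 (+ strand, Slc26a3, HNF1 letters starting at -84) and chr17:43502724-43503023 (- strand, Mep1a, CDX letters starting at 13 after the start).
Muc13: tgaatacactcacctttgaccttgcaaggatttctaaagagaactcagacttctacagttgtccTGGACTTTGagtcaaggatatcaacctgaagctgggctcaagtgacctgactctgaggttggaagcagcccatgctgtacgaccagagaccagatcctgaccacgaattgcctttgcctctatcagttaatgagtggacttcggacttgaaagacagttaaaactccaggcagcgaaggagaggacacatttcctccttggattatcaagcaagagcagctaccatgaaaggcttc
Slc26a3: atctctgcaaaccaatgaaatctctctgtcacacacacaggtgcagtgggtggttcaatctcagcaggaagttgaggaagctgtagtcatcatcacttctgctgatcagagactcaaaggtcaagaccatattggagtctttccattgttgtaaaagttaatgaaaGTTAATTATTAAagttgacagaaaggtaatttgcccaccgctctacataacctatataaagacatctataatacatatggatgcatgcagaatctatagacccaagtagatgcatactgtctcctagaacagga
Mep1a: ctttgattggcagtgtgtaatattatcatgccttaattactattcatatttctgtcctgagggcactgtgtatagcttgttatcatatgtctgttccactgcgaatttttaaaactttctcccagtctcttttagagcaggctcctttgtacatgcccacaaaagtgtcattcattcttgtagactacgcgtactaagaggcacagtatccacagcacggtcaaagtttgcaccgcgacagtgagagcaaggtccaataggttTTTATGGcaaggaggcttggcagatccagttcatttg

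Among transcription factors of the intestinal epithelium, Cdx1, a homeobox gene of the intestinal lineage, rose without overlap between stages. It had 232 to 332 CPM (median 283) at E15.5, against 9.37, 8.43 and 9.46 CPM at E13.5 (log2 change 4.94 ± 0.78, adjusted p = 2.36e-05, edgeR's quasi-likelihood test). Its relative Cdx2 was not called, with 35.5 to 94.6 CPM at E15.5, against 50.6, 134.8 and 72.5 CPM at E13.5 (log2 change -0.57 ± 0.35, adjusted p = 0.32). Hnf4g, a nuclear receptor of enterocytes, had 268 to 466 CPM at E15.5, against 119, 110.4 and 128 CPM at E13.5. Nr1h4, the bile acid receptor FXR, had 93.8 to 157 CPM at E15.5, against 28.4, 28.2 and 29.4 CPM at E13.5, and rose by 2.11 ± 0.31. Of 29 endoderm and epithelial identity genes tested of 30 listed, 5 rose and 3 fell, with a median log2 change of 0.14, close to that of all genes. Of 18 proximal gut factors tested of 19, 2 rose and 4 fell (median log2 change -0.24), and of 18 caudal and distal factors tested of 24, 1 rose and 3 fell (median -0.70). The proximal count of 4 was 2 without anterior libraries 1 and 2, and 2 without the libraries with Y-linked reads. Hoxa10, a posterior homeobox gene, was at 0 in all 6 E15.5 libraries and at least 36.6-fold lower, but its call was lost with each library left out.

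Stem cell genes were called in both directions. Of 25 intestinal stem cell genes, all tested, 3 rose, 3 fell and the median log2 change was -0.09. Smoc2, a matricellular protein of stem cells, had 17.2 to 99 CPM (median 37.7) at E15.5, against 1.55, 2.79 and 4.36 CPM at E13.5 (log2 change 3.81 ± 0.62, adjusted p = 2.82e-05, edgeR's quasi-likelihood test). Ascl2, the stem cell bHLH factor, had 26.7 to 34.5 CPM at E15.5, against 10.1, 11.3 and 12.5 CPM at E13.5. Fstl1, a secreted BMP-binding protein, had 2.12 to 12 CPM (median 5.38) at E15.5, against 66.1, 76.6 and 77.8 CPM at E13.5, a log2 change of -3.83 ± 0.33. Mex3a, an RNA-binding protein of slow-cycling cells, had 5.41 to 10 CPM at E15.5, against 32.1, 24.6 and 26.1 CPM at E13.5. Stages did not overlap for these 4 genes. Sox9, a factor of progenitors, had 96.5 to 170 CPM at E15.5, against 146, 477 and 289 CPM at E13.5, overlapped, and lost its call without E13.5 replicate 2 (adjusted p = 0.154 by edgeR's quasi-likelihood test). The count of stem cell genes that rose was 1 without E13.5 replicate 1 or 3 and 1 without anterior libraries 1 and 2. Id2, an inhibitor of bHLH factors and the labelling gene of the series' other line, had 361 to 708 CPM (median 486) at E15.5, against 1392, 774 and 964 CPM at E13.5, with no overlap and a log2 change of -1.06 ± 0.18.

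In the fetal progenitor list 21 of 22 genes were tested, 2 rose, 11 fell and the median log2 change was -1.11. Cnn3, an actin-binding calponin, had 233 to 475 CPM (median 299.7) at E15.5, against 1139, 829 and 999 CPM at E13.5, and Dkk3, a secreted Dickkopf family protein, had 0.0622 to 1.33 CPM at E15.5, against 17.1, 39.6 and 26.1 CPM at E13.5. Neither overlapped. Their log2 changes were -1.64 ± 0.18 and -6.26 ± 0.69. Spp1, osteopontin, had 0 to 2.34 CPM at E15.5, against 131, 29.4 and 43.5 CPM at E13.5. Members that rose were S100a6, a calcium-binding protein, with 54.3 to 92.6 CPM at E15.5, against 26, 21 and 28.6 CPM at E13.5, and Krt7, a simple-epithelium keratin, with 382 to 482 CPM at E15.5, against 259, 259.8 and 272 CPM at E13.5. The 13 mesenchyme markers summed to 15.48 to 94.9 CPM at E15.5, against 115 to 151 CPM at E13.5. Of the 12 tested, only Vim was called, as lower, and 11 were not called. Their log2 changes ran from -2.13 to 2.90. The part of mesenchymal reads in the fall of the fetal progenitor list was not tested. Without anterior libraries 1 and 2 the count that fell was 7. Of 17 oncofetal RNA-binding and chromatin genes, all tested, none rose and 4 fell (median log2 change -0.16). Peg3, an imprinted zinc finger gene, had 24 to 60.2 CPM at E15.5, against 161, 594 and 292 CPM at E13.5, and Grb10, an imprinted adaptor that restrains growth, had 103 to 197 CPM at E15.5, against 362, 716 and 463 CPM at E13.5. Stages stood apart for both. Hmga2 and Igf2bp3 also fell, by 0.99 ± 0.24 and 0.59 ± 0.16 on the log2 scale. Hmga2 lost its call without E13.5 replicate 1 (adjusted p = 0.0646, edgeR's quasi-likelihood test). Igf2bp3 lost its call without E13.5 replicate 2 (adjusted p = 0.117, edgeR's quasi-likelihood test) or 3. Its call was also lost without either set of libraries left out together and with the gut parts summed by number.

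Genes of the YAP and TEAD pathway, which reads cell shape and stretch, fell in 7 of 21 members and rose in 2, all 21 being tested, with a median log2 change of -0.62. Tead2, a DNA-binding partner of YAP, had 6.91 to 14.8 CPM (median 10.6) at E15.5, against 65.6, 106 and 99.9 CPM at E13.5 (log2 change -3.09 ± 0.32, adjusted p = 8.76e-09, edgeR's quasi-likelihood test). Ajuba, a LIM protein that restrains the Hippo kinases, had 5.87 to 15.8 CPM at E15.5, against 37.1, 94.1 and 57.7 CPM at E13.5. Axl, a receptor kinase and YAP target, had 11 to 32 CPM at E15.5, against 37.6, 127 and 70.2 CPM at E13.5. Areg, the EGF-family ligand amphiregulin and a YAP target, moved the other way, at 9.08 to 66.4 CPM (median 40.5) at E15.5, against 0.414, 0.867 and 0.813 CPM at E13.5. None of the 4 overlapped. The count that fell was 4 without E13.5 replicate 2 and 4 without anterior libraries 1 and 2. The count of 2 that rose was 1 without any single E15.5 library, without E13.5 replicate 1 or 2, and without either set of libraries left out together.

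Signalling genes changed in smaller numbers. Pth1r, the receptor of parathyroid hormone-related peptide, was close to 0 at E15.5. It had 0.543, 0.472 and 0.443 CPM in the anterior and 4.37, 3.36 and 3.32 CPM in the posterior E15.5 libraries, against 187, 293 and 236 CPM at E13.5 (log2 change -7.47 ± 0.66, adjusted p = 4.68e-10, edgeR's quasi-likelihood test). It is 1 of 4 members that fell, with Fgfr1, Fgfr2 and Kit, among 28 growth factor receptors and ligands tested of 29, and no member rose (median log2 change -0.13). Fgfr1 had 2.34 to 5.77 CPM at E15.5, against 16.7, 31.1 and 25.6 CPM at E13.5, and Fgfr2 had 39.2 to 106 CPM at E15.5, against 109, 298 and 198 CPM at E13.5. Kit lost its call without E13.5 replicate 2 (adjusted p = 0.137 by edgeR's quasi-likelihood test), a fit in which 1 member of the list was called higher. The call of Kit was also lost without either set of libraries left out together and with the gut parts summed by number.

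Ltbp1, which tethers latent TGF-beta in the matrix, had 0.436 to 1.66 CPM at E15.5, against 27.6, 116 and 47.4 CPM at E13.5, a log2 change of -6.15 ± 0.82. Of 26 BMP, TGF-beta and Id genes tested of 30, 3 rose and 6 fell (median log2 change -0.31). Id3 had 149 to 257 CPM at E15.5, against 51.4, 18.4 and 35 CPM at E13.5, and Id4 had 4.36 to 16.5 CPM at E15.5, against 0.155, 0.0963 and 0.755 CPM at E13.5, so these Id genes moved opposite to Id2. The count of 6 that fell was 2 without E13.5 replicate 2 or 3, anterior library 1, anterior libraries 1 and 2, or the libraries with Y-linked reads, and 3 without E13.5 replicate 1, anterior library 2 or 3, or posterior library 1 or 3. Among Wnt receptors, targets and R-spondins, 31 of 33 were tested, 2 rose and 6 fell (median -0.49). Fzd2, a Wnt receptor, had 0.685 to 3.76 CPM at E15.5, against 20.6, 29.9 and 25.3 CPM at E13.5, and Tcf7l1, a repressing TCF factor, had 8.85 to 12.3 CPM at E15.5, against 27.7, 60.1 and 45.8 CPM at E13.5. Their stages did not overlap. The 6 that fell were 3 without E13.5 replicate 2, and the 2 that rose were 0 without any 1 of the E13.5 replicates, without anterior libraries 1 and 2 and without the libraries with Y-linked reads, and 1 without anterior library 1 or 3 or posterior library 3. Of 18 Wnt antagonists and ligands tested of 21, 1 rose and 3 fell (median -1.97). The median was -0.67 for the anterior and -0.86 for the posterior part. In a fit of the libraries of the contrast alone, 11 members passed the filter, so -1.97 is not a broad fall of the list. Wnt3, the epithelial Wnt ligand of Paneth cells, had 0.86 to 6.25 CPM at E15.5 and 2 reads in all at E13.5, a ratio of 78.2 (95% exact counting interval 21.5 to 649).

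Hedgehog genes had 14 of 17 members tested, none rose and 3 fell (median log2 change -0.75). Shh, the ligand sonic hedgehog, had 7.07 to 17.8 CPM at E15.5, against 36.6, 45.5 and 28 CPM at E13.5, without overlap. Its log2 change was -1.69 ± 0.44 (adjusted p = 0.00682), but without E13.5 replicate 2 its adjusted p was 0.0594, both by edgeR's quasi-likelihood test. The call of Shh was also lost without either set of libraries left out together and with the gut parts summed by number. Ihh, the other epithelial hedgehog ligand, was not called: it had 108 to 176 CPM at E15.5, against 109.6, 242 and 182 CPM at E13.5. Gli3, the hedgehog-regulated transcription factor, had 0 to 3.93 CPM at E15.5, against 12.2, 13.48 and 6.27 CPM at E13.5. The count that fell was 1 without E13.5 replicate 2 and 1 without the libraries with Y-linked reads. Of 24 Notch genes, all tested, 3 rose and 2 fell (median 0.11). Dll3, a Notch ligand made by endocrine progenitors, had 7.53 to 57 CPM at E15.5, against 0.104, 0.337 and 0.232 CPM at E13.5. Nrarp, a feedback inhibitor of Notch, had 33.8 to 70.8 CPM at E15.5, against 1.97, 3.23 and 2.03 CPM at E13.5, and Notch3, a receptor, had 1.09 to 2.93 CPM at E15.5, against 8.13, 20.9 and 14.8 CPM at E13.5. Stages stood apart for all 3. The Notch count of 2 that fell was 1 without any single library and without either set of libraries left out together.

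Of 31 basement membrane and integrin genes tested of 34, 1 rose, 9 fell and the median log2 change was -1.23. Fn1, fibronectin, had 8.21 to 19.6 CPM at E15.5, against 106, 167 and 148 CPM at E13.5 (log2 change -3.58 ± 0.38, adjusted p = 1.23e-08, edgeR's quasi-likelihood test), and Itgb5, an integrin subunit, had 33.9 to 57 CPM at E15.5, against 99.95, 188 and 174 CPM at E13.5. Col4a1, a collagen IV chain of basement membranes, had 0.652 to 5.47 CPM at E15.5, against 14.4, 34.1 and 24 CPM at E13.5. None of these overlapped. Mesenchymal cells also make these genes, and the part of the lower summed mesenchyme marker level given above in this fall was not tested. Cldn6, a claudin of embryonic epithelia, had 82.5 to 225 CPM (median 146) at E15.5, against 919.5, 743 and 904 CPM at E13.5 (log2 change -2.52 ± 0.23, adjusted p = 4.68e-10, edgeR's quasi-likelihood test). Cldn2, a pore-forming claudin, had 43.6 to 126 CPM at E15.5, against 11.8, 12.1 and 6.97 CPM at E13.5, and Cldn7, a basolateral claudin, had 1789 to 2382 CPM at E15.5, against 1337, 941 and 1214 CPM at E13.5. All 3 claudins were separated by stage. In all, 5 of 24 claudin and tight junction genes tested of 25 rose and 3 fell (median log2 change 0.18, or 0.13 with bounds), and 1 fell without anterior libraries 1 and 2. Of 19 Eph receptors and ephrins tested of 21, 1 rose and 6 fell (median -0.73). Efna1 had 70.3 to 150.3 CPM at E15.5, against 51.6, 32.9 and 33 CPM at E13.5, and Efna2 had 3.37 to 12.9 CPM at E15.5, against 42, 53.4 and 54.7 CPM at E13.5. The 6 were 3 without E13.5 replicate 2 or without anterior libraries 1 and 2, and 2 without the libraries with Y-linked reads.

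**Figure D4:**
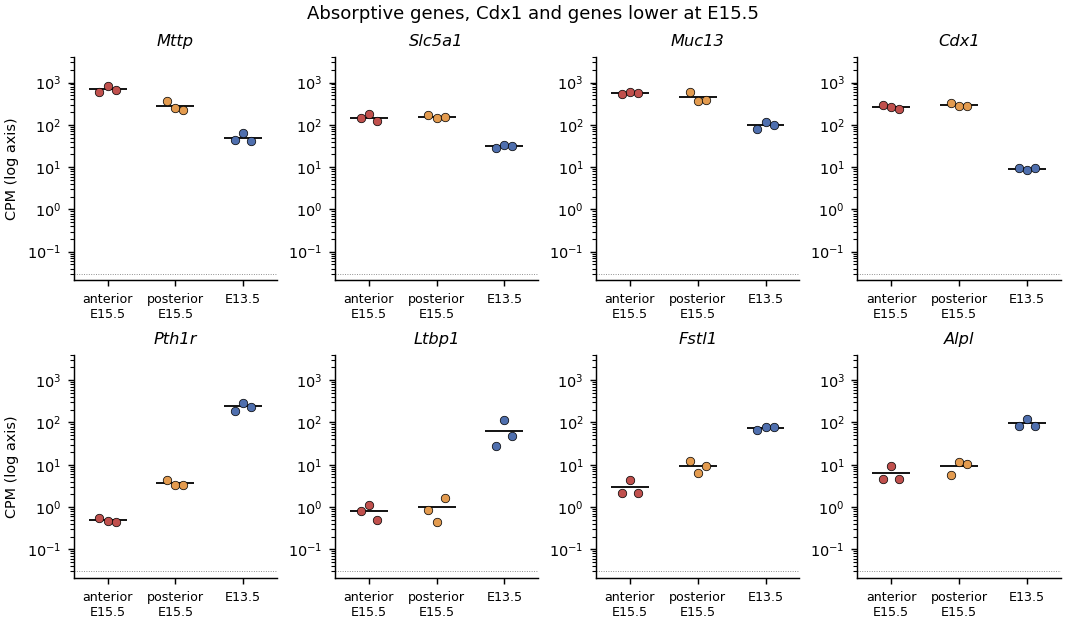
CPM (log axis) of Mttp, Slc5a1, Muc13 and Cdx1, which rose, and of Pth1r, Ltbp1, Fstl1 and Alpl, which fell, in each anterior E15.5, posterior E15.5 and E13.5 library, with bars at the group means. The stages do not overlap for any of the 8 genes, and Pth1r is near 0.5 CPM in the anterior and between 3.32 and 4.37 CPM in the posterior libraries, against 187 to 293 CPM at E13.5.

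Glucose-handling genes were called in both directions, and few cell cycle genes were called. Glycolysis genes had 22 of 24 tested, 6 higher and 4 lower (median log2 change 0.31). Pfkp, the platelet isoform of phosphofructokinase, had 208 to 386 CPM (median 279) at E15.5, against 15.7, 28.5 and 21.9 CPM at E13.5 (log2 change 3.65 ± 0.65). Slc2a3, a high-affinity glucose carrier, had 0 to 1.2 CPM at E15.5, against 38.5, 75.6 and 75.7 CPM at E13.5, and Ldhb, the heart-type lactate dehydrogenase subunit, had 6.02 to 17.6 CPM at E15.5, against 69.6, 46.9 and 49.8 CPM at E13.5. Stages did not overlap for these 3. The count of 6 higher was 3 without E13.5 replicate 2 or 3 or anterior libraries 1 and 2, and the count of 4 lower was 2 without anterior libraries 1 and 2. Of 36 DNA replication and mitosis genes, all tested, 0 rose and 1 fell (median -0.17), Gins2, which lost its call without E13.5 replicate 1 or 3, anterior library 2 or 3, or posterior library 1. Cell cycle inhibitors had 2 of 16 tested members higher (median 0.54), Cdkn1a with 218 to 275 CPM at E15.5, against 169.7, 90.1 and 123 CPM at E13.5, and Rb1 with 21 to 42.8 CPM at E15.5, against 12.6, 11.8 and 10.3 CPM at E13.5. Neither was called without E13.5 replicate 2 or 3, without anterior libraries 1 and 2, or without the libraries with Y-linked reads, and 1 was called without E13.5 replicate 1 or any single E15.5 library but posterior 2. Cholesterol synthesis had 5 of 25 members higher (median 0.185), a count that was 2 without E13.5 replicate 2, 0 without E13.5 replicate 3, 1 without anterior libraries 1 and 2 and 0 without the libraries with Y-linked reads. Of 23 polarity genes 3 fell (median -0.67), a count that was 0 without E13.5 replicate 2, 1 without E13.5 replicate 3, and 0 without either set of libraries left out together.

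Other genes among the 10 largest called changes in each direction lay outside the pathway lists. Among those that rose, St3gal4, a sialyltransferase, had 168 to 385 CPM at E15.5, against 5.23, 2.5 and 4.41 CPM at E13.5, and Tmem236, a membrane protein, had 57.5 to 128 CPM at E15.5, against 0.88, 0.915 and 0.581 CPM at E13.5. Aadac, an esterase of liver and intestine, had 28.4 to 269 CPM at E15.5, against 1.5, 0.385 and 0.29 CPM at E13.5. Among those that fell, Rcn3, a calcium-binding protein of the endoplasmic reticulum, had 1.66 to 5.7 CPM at E15.5, against 99.3, 93.5 and 103 CPM at E13.5, a log2 change of -4.79 ± 0.53. Igfbp2, which binds insulin-like growth factors, had 7.04 to 23 CPM at E15.5, against 350.4, 196 and 288 CPM at E13.5, and Tdh, threonine dehydrogenase, had 1.94 to 14.6 CPM at E15.5, against 226, 174 and 213 CPM at E13.5. Nnat, the imprinted gene neuronatin, had 3.33 to 7.28 CPM at E15.5, against 158, 106 and 124 CPM at E13.5. Vcan, the matrix proteoglycan versican, had 1.47 to 17.4 CPM at E15.5, against 43.8, 75.3 and 60.4 CPM at E13.5. Ambp, a plasma protein precursor made in liver, had 4.49 to 61.4 CPM at E15.5, against 434, 172 and 257 CPM at E13.5. The 10 liver markers summed to 263 to 605 CPM at E15.5, against 960, 693 and 783 CPM at E13.5. Ambp is 1 of them, so its own fall is part of the gap between these sums. Of 8 liver markers tested, 3 fell, Ambp among them, and none rose. The part of liver reads in the fall of Ambp was not tested. These 9 genes were chosen from those without overlap between stages, so their separation is a condition of the choice and not a result.

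The E15.5 libraries came from named gut parts and the E13.5 libraries did not, so each part was also set against the same E13.5 libraries. Anterior E15.5 cells had 809 genes higher (5.21%) and 812 lower (5.23%), 10.4% in either direction. Posterior cells had 644 higher (4.15%) and 736 lower (4.74%), 8.9% in either direction. Since both use the same 3 E13.5 libraries, these counts share their error. Without E13.5 replicate 2 or 3 the anterior count higher was 537 or 476, and without anterior library 1 or 2 the anterior count lower was 477 or 492. Without E13.5 replicate 2 the posterior counts were 319 higher and 431 lower, and without posterior library 1 they were 386 and 444 and without posterior library 2 they were 428 and 402. The posterior count higher was 337 without E13.5 replicate 3, and the count lower was 489 without posterior library 3. Without anterior libraries 1 and 2 the anterior counts were 232 and 142, and without the libraries with Y-linked reads the posterior counts were 252 and 149, each from 1 remaining library of the part, which is assumed to vary like the other groups. Of the 886 genes higher by stage, 481 were called in both parts, 219 in the anterior part alone, 120 in the posterior part alone and 66 in neither. Of the 1177 lower, the numbers were 473, 269, 216 and 219.

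Median log2 changes of the secretory lists were larger in the anterior part, at 5.20 for goblet and Paneth genes and 7.30 for endocrine factors, than in the posterior part, at 4.16 and 3.88, a difference between lists that was not tested. The pancreas markers moved with it: their median log2 change over 11 tested genes was 3.44 in the anterior and -2.55 in the posterior part, and anterior libraries 1 and 2 had the 1361 and 2490 CPM given above. Endocrine factors are shared with pancreatic islets, and the part of these reads in the anterior medians was not tested. Genes that differed between the parts were tested directly as posterior minus anterior. Sfrp5, a secreted Wnt antagonist of the anterior gut, had 368, 216 and 374 CPM in the anterior and 0.546, 0.685 and 0.307 CPM in the posterior E15.5 libraries, against 651, 253 and 540.4 CPM at E13.5. Its difference was -9.27 ± 1.00 (adjusted p = 1.14e-06, edgeR's quasi-likelihood test), and the anterior libraries overlapped E13.5. Adh1 differed by -3.69 ± 0.71 (adjusted p = 0.00481). Osr2, a zinc finger gene of the distal list, had 23.3, 50.4 and 49.5 CPM in the anterior and 212, 200.8 and 195 CPM in the posterior libraries, against 244, 236 and 204 CPM at E13.5, a difference of 2.302 ± 0.37 (adjusted p = 0.000661 by edgeR's quasi-likelihood test). The anterior libraries lay far below E13.5 for Osr2, where the posterior ones lay at or just below its range, and the posterior libraries lay far below it for Sfrp5.

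Opposite signs in the parts were rare among genes called for stage: all 886 higher and 1176 of the 1177 lower had the same sign in both. Of the 15513 genes tested, 23 had opposite signs, a call in at least 1 part or for stage, and a mean log2 CPM of at least 3. Of these 23, 3 of those with the smallest adjusted p are given. Cpne8, a copine that binds membranes in the presence of calcium, had 23.3, 29.5 and 21.4 CPM in the anterior and 113, 102 and 102 CPM in the posterior libraries, against 89.8, 65.2 and 77.4 CPM at E13.5. Tfpi2, a protease inhibitor of the matrix, had 8.26, 9.29 and 5.31 CPM in the anterior and 44.7, 28.8 and 32.9 CPM in the posterior libraries, against 31.3, 22.5 and 21.4 CPM at E13.5. Prss23, a serine protease, had 104, 96.5 and 181 CPM in the anterior and 351, 366 and 368 CPM in the posterior libraries, against 334, 239 and 351 CPM at E13.5. For these 3 the anterior change was called lower, while the posterior change was small and not called, at 0.45 ± 0.33, 0.50 ± 0.35 and 0.23 ± 0.24.

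The stage change was then compared with that of Lgr5-positive unlabelled cells of the same line, 6 E15.5 and 3 E13.5 libraries, as a difference of the stage changes in the same fit. Few genes passed: 14 (0.0902%) had a higher and 12 (0.0774%) a lower change (0.168% in either direction) in Lgr5-negative than in Lgr5-positive cells by edgeR's quasi-likelihood test, while 737 genes had an unadjusted p below 0.05 and DESeq2 called 50 and 94. These counts were 8 higher without E13.5 replicate 3 of the Lgr5-negative cells and 7 lower without its replicate 1 or 3. They were 7 and 3 without anterior libraries 1 and 2, and 8 and 3 without the libraries with Y-linked reads. Against labelled cells of unstated Lgr5 state, 9 libraries of the same line, no gene was called by edgeR's quasi-likelihood test in either direction, with 222 genes at an unadjusted p below 0.05, 16 and 25 called by DESeq2 and 23 and 24 by voom. The median log2 change of goblet and Paneth genes was 4.77 in Lgr5-negative cells, 4.89 in Lgr5-positive cells and 5.64 in labelled cells.

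Smoc2, the stem cell gene above, was among those with the higher change in Lgr5-negative cells. It had 17.2 to 99 CPM in Lgr5-negative cells at E15.5, against 1.55 to 4.36 CPM at E13.5, while Lgr5-positive cells had 271, 120.1 and 254 CPM (anterior) and 123, 214 and 71.1 CPM (posterior) at E15.5, against 156, 248 and 219 CPM at E13.5. The difference of changes was 4.09 ± 0.75 (adjusted p = 0.00779, edgeR's quasi-likelihood test), and its adjusted p was 0.0503 without E13.5 replicate 1. Vav3, an exchange factor for small GTPases, had 70 to 108 CPM in Lgr5-negative cells at E15.5, against 10.1, 7.7 and 8.36 CPM at E13.5, and 108 to 254 CPM in Lgr5-positive cells at E15.5, against 182, 185 and 221 CPM at E13.5. Its difference was 3.41 ± 0.48 (adjusted p = 0.000136) and held in all 19 alternatives. Lgr5-negative libraries of E13.5 were the lowest of the 4 sets for both genes. Mep1a, a brush border metalloprotease, had 45 to 159 CPM in Lgr5-negative cells at E15.5, against 9.22, 15.1 and 19.2 CPM at E13.5, and 46.8 to 229 CPM in Lgr5-positive cells at E15.5, against 126, 100 and 132 CPM at E13.5 (difference 2.83 ± 0.53).

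Degs2, a sphingolipid hydroxylase, rose in both populations by unequal amounts, at 3.06 ± 0.24 in Lgr5-negative and 1.51 ± 0.22 in Lgr5-positive cells. Gramd3 and Mylk3, a GRAM-domain protein and a myosin light chain kinase, were not called for stage in Lgr5-negative cells and were lower at E15.5 in Lgr5-positive cells. Gramd3 had 146 to 177 CPM in Lgr5-negative cells at E15.5, against 124, 119.6 and 138 CPM at E13.5, and 116 to 194 CPM in Lgr5-positive cells at E15.5, against 405, 344 and 420.0 CPM at E13.5. Mylk3 had 11.3 to 19.1 CPM in Lgr5-negative cells at E15.5, against 13.6, 14.9 and 8.54 CPM at E13.5, and 9.18 to 21.2 CPM in Lgr5-positive cells at E15.5, against 49.8, 42.4 and 49 CPM at E13.5. Their differences, 1.78 ± 0.25 and 2.33 ± 0.38, held in all 19 alternatives.

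In the opposite direction, Sfrp5 differed by -8.68 ± 1.09 (adjusted p = 4.26e-05, edgeR's quasi-likelihood test). In Lgr5-positive cells it had 178, 154 and 208 CPM in the anterior and 0.053, 0.203 and 1.2 CPM in the posterior libraries at E15.5, against 0.458, 1.12 and 0.98 CPM at E13.5. At E13.5 it was thus present in the Lgr5-negative and near 0 in the Lgr5-positive libraries, and at E15.5 it was high in the anterior libraries of both. Gata4, a factor of the proximal gut, had 151 to 215 CPM in anterior and 68.7 to 75.7 CPM in posterior Lgr5-negative libraries at E15.5. These cells had 121, 274 and 210.4 CPM at E13.5. In Lgr5-positive cells Gata4 had 127 to 184 CPM in anterior and 26.9 to 99.1 CPM in posterior libraries at E15.5, against 6.16, 25.2 and 6.52 CPM at E13.5. Tm4sf4, a tetraspan membrane protein, had 173 to 335 CPM in anterior and 103 to 105 CPM in posterior Lgr5-negative libraries at E15.5. These cells had 330.1, 152 and 312 CPM at E13.5. In Lgr5-positive cells Tm4sf4 had 206 to 402 CPM in anterior and 39.4 to 101 CPM in posterior libraries at E15.5, against 6.01, 2.94 and 8.57 CPM at E13.5. Lgr5-positive libraries of E13.5 were thus the lowest of the 4 sets for Gata4 and Tm4sf4. The differences of Gata4 and Tm4sf4 were -3.62 ± 0.73 and -5.24 ± 0.97.

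Rbp4, the retinol carrier of plasma, Igfbp2 and Pamr1, a secreted protein named for muscle regeneration, had the more negative change in Lgr5-negative cells. Rbp4 had 17.7 to 101 CPM in Lgr5-negative cells at E15.5, against 566, 327 and 525 CPM at E13.5, and 11.5 to 134.8 CPM in Lgr5-positive cells at E15.5, against 90.5, 58.3 and 65.6 CPM at E13.5. Igfbp2 had 11.5 to 82.1 CPM in Lgr5-positive cells at E15.5, against 109, 113 and 101 CPM at E13.5, beside the Lgr5-negative values given above. Pamr1 had 3.75 to 12.8 CPM in Lgr5-negative cells at E15.5, against 64.8, 61.9 and 84.4 CPM at E13.5, and 5.83 to 15.49 CPM in Lgr5-positive cells at E15.5, against 8.55, 6.78 and 13.1 CPM at E13.5. The Lgr5-negative libraries of E13.5 were the highest of the 4 sets for these 3 genes. Calls of Mep1a, Degs2, Pamr1, Tm4sf4, Gata4 and Rbp4 were lost without anterior libraries 1 and 2, at adjusted p of 0.0522, 0.0897, 0.051, 0.0897, 0.116 and 0.0996 by edgeR's quasi-likelihood test. Leaving out the libraries with Y-linked reads lost Igfbp2, Pamr1, Tm4sf4 and Gata4, at 0.2, 0.0975, 0.0975 and 0.152 in the same test. Among single libraries, leaving out E13.5 replicate 1 lost Mep1a and Igfbp2, replicate 2 lost Degs2 and Gata4, and replicate 3 lost Degs2.

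**Figure D5:**
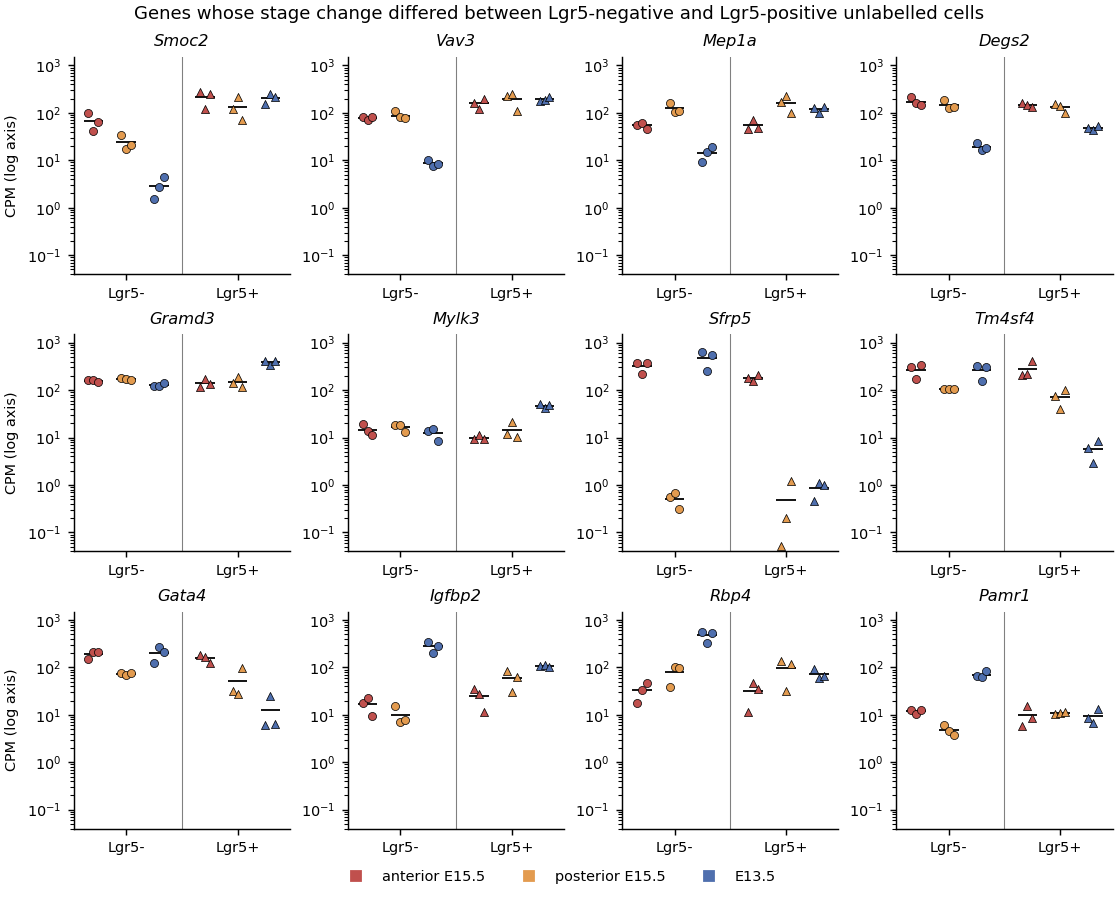
CPM (log axis) of 12 genes whose stage change differed between Lgr5-negative (circles) and Lgr5-positive (triangles) unlabelled cells, with anterior E15.5, posterior E15.5 and E13.5 libraries in separate colours. Smoc2 and Vav3 are high in Lgr5-positive cells at both stages and low in Lgr5-negative cells at E13.5, where Vav3 is at 7.7 to 10.1 CPM, and Sfrp5 is near 0 in every posterior E15.5 library of both populations.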

How the data were processed

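Read counts per gene, 1 table of whole numbers per library, were deposited by the authors for 45 libraries, of which 9 are described here. Per the submitters' processing notes, the tools were bcl2fastq 1.8.4, STAR 2.3.1z13, SAMtools 1.2, HTSeq 0.6.1p1 and DESeq2 1.14.1, with build mm9. Which annotation and strand setting were used is not given in the sources used here. Overlapping and antisense genes can therefore not be separated. The globin genes Hba-a1, Hba-a2, Hbb-b1 and Hbb-b2 were at 0 in all 9 libraries, and genes with near-identical copies are uncertain. Whether Clca3 shares reads with other members of its family was not tested. Per the labels' protocols, cDNA of 500 cells was amplified for 15 cycles, with no molecular identifiers named, so reads are not molecules and intervals and floors cover counting error only. Closing lines that name no gene, 23.9 to 29.2% of reads, were left out.

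Counts were tested with edgeR 4.0.16 in R 4.3.3 (quasi-likelihood, robust, TMM), all 45 libraries sharing 1 estimate of spread over 15 groups with 30 residual degrees of freedom. The filter (filterByExpr, minimum count 10, minimum total 15) kept 15513 of 23366 genes. Benjamini-Hochberg adjustment ran over these genes. SE is the log2 change divided by the root of F, and log2 CPM used a prior count of 2. Replicates differed beyond sampling noise (chi-square per degree of freedom 19.5 to 133), so none was a copy. The test was tried on simulated counts of independent libraries, a setting that does not cover shared embryos or the libraries that stood apart. Alternatives were DESeq2 1.42.0, limma 3.58.1 voom, RLE factors, no filter, fewer libraries, summed gut parts, a replicate block and leaving out libraries. The 2 sets of libraries left out together were chosen after seeing the data.

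The members and lists were chosen with earlier results of these data known. Genes named by rule are Epcam, Lgr5, Axin2 and Id2, the 10 largest called changes in each direction at a mean log2 CPM of at least 3 with no overlap between stages, up to 4 members per list by adjusted p, up to 6 called genes per direction for each difference of stage changes, and up to 4 genes of opposite sign in the gut parts. Muc2, Gfi1, Spdef, Neurod1, Sox4, Ghrl, Fabp1, Vil1, Alpi, Slc40a1, Cdx2, Ascl2, Spp1, S100a6, Krt7 and Ihh were added after their values were seen. Some genes named by that rule enter the counts alone and are not reported here. RefSeq promoters of GRCm38.p6 were matched by symbol and their coordinates are not those of the counts' build.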

Additional observations from a re-analysis of the deposited data

Results flagged for a closer look

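Genes listed here had a stage change (E15.5 minus E13.5, log2) that differed between Lgr5-negative and Lgr5-positive unlabelled cells by the test of the difference itself (edgeR's quasi-likelihood test, adjusted over all genes tested). A larger change in Lgr5-negative cells was found for Smoc2 (4.09), Vav3 (3.41), Mep1a (2.83), Mylk3 (2.33), Gramd3 (1.78) and Degs2 (1.54). A smaller or more negative change was found for Sfrp5 (-8.68), Tm4sf4 (-5.24), Gata4 (-3.62), Pamr1 (-3.34), Igfbp2 (-2.92) and Rbp4 (-2.82). Of these 12 genes, Vav3, Mylk3, Gramd3 and Sfrp5 were called in all 19. The others lost their call in 1 alternative (Smoc2, Rbp4), 2 (Igfbp2), 3 (Mep1a, Pamr1, Tm4sf4), 4 (Degs2) or 5 (Gata4), with no change of sign. No group of 4 or more libraries of 1 gut part and stage exists, so a library standing apart within a group was not tested.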

How the results depend on the processing

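The 127 genes named by rule were refitted under 19 alternatives, and no called change reversed: 2505 gene results stayed on their side of the threshold, called or not, 120 lost their call and 16 gained one. Of the 116 genes called for stage, 95 kept their call throughout. Genes added after their values were seen were not followed there. Counts of called genes moved more. For stage (886 higher, 1177 lower), leaving out anterior libraries 1 and 2 gave 515 and 571, summing the gut parts by number 573 and 585, voom 3229 and 4170, the 9 libraries alone 1930 and 1850, the 33 Axin2-line libraries 1764 higher, and leaving out the libraries with Y-linked reads 640 lower. For the anterior part these were 232 and 142 (without libraries 1 and 2), 3232 and 3379 (voom), 1766 and 1423 (the contrast's libraries), 1592 and 1268 (33 libraries) and 516 lower (Y-linked). For the posterior part they were 2722 and 3452 (voom), 1574 and 1394 (the contrast's libraries), 1520 and 1210 (33 libraries) and 252 and 149 (Y-linked). For the difference from Lgr5-positive cells they were 50 and 94 (DESeq2), 7 and 3 (without anterior libraries 1 and 2), 6 and 6 (summed), 361 and 600 (voom), 71 and 123 (the contrast's libraries), 45 and 46 (33 libraries) and 8 and 3 (Y-linked). For the difference from labelled cells, DESeq2 gave 16 and 25 and voom 23 and 24. With each library left out in turn, ranges were 497 to 813 higher and 766 to 1049 lower for stage, 476 to 775 and 477 to 785 for the anterior part, 319 to 622 and 402 to 780 for the posterior part, 8 to 14 and 7 to 11 for the difference from Lgr5-positive cells, and 0 to 0 for that from labelled cells. Fewer libraries were fitted when libraries were left out or summed. The cause of the other moves was not tested.

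A replicate block gave 1003 and 1292 for stage, 900 and 900 for the anterior part, 748 and 839 for the posterior part, 18 and 17 for the difference from Lgr5-positive cells and 0 and 0 for that from labelled cells. What same-numbered libraries share beyond a number is not given in the sources used. Their deviations from group means over 9258 genes correlated at 0.369, -0.082 and 0.501 for anterior with posterior libraries 1, 2 and 3. They correlated at 0.043 to 0.48 for anterior with E13.5 and at -0.211 to -0.047 for posterior with E13.5. In these comparisons 2, 2 and 0 of 3 correlated best with their own number. The main test took anterior and posterior libraries as independent, and a shared embryo was not tested for. Summing the gut parts by number gave 573 higher and 585 lower for stage.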
